A study of Homo sapiens with 14 samples.

Results

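The Notch genes considered here were 10 named genes: the receptors NOTCH1, NOTCH2 and NOTCH3, the ligands DLL1, DLL3, JAG1 and JAG2, the target genes HES1 and HEY1, and the coactivator MAML2. They were chosen by name and make up 10 of the 19923 genes in the count tables, with no threshold on a measured value. Their mRNA was measured by RNA sequencing in 14 libraries of SK-N-BE2, an established human neuroblastoma line with an amplified MYCN gene, in 7 groups of 2 libraries. Batch 1 held wild-type cells given H2O, 10 µM CoCl2 or 50 µM CoCl2; the labels give no exposure time. Batch 2 held untreated wild-type cells (WT) and cells labelled TET2KO 1, TET2KO 2 and TET2KO 3, which are called labelled knockouts below. How the knockouts were made, and whether each is a clone or a pool, is not stated in the labels, nor is whether the 2 replicates of a group were separate cultures. The p-values therefore measure the spread between these libraries only. All 14 libraries came from the same line in the same serum-supplemented RPMI medium.

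Notch receptors are membrane proteins that are cut after a ligand on a neighbouring cell binds them. The γ-secretase complex releases the intracellular domain, which enters the nucleus and joins the DNA-binding protein RBPJ and a Mastermind-like coactivator such as MAML2. The complex switches on repressors of the HES and HEY families, which hold back neuronal differentiation genes in many tissues, and in neuroblastoma the pathway has been linked to the balance between adrenergic and mesenchymal cell states. CoCl2 is a salt widely used to stabilise hypoxia-inducible factors (HIF). TET2 oxidises 5-methylcytosine, which in mammals lies mainly in CG dinucleotides, to 5-hydroxymethylcytosine.

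RefSeq promoter windows (GRCh38.p14), from 250 bases before to 50 after the gene start, were found for 7 of the 10 genes, all but DLL1, DLL3 and HEY1. Printed here are the 250 bases before the start of HES1, NOTCH1, JAG1 and MAML2. The HES1 promoter carries known RBPJ sites, and the other 3 genes were those called lower than WT in all 3 labelled knockouts. Each stretch is written 5′ to 3′ along the gene's strand. The HES1 stretch is chr3:194135898-194136147 on the plus strand, with capitals on TGGGAA (the RBPJ core), CACGAG and CACGCG (boxes bound by HES proteins), each in either orientation.
HES1: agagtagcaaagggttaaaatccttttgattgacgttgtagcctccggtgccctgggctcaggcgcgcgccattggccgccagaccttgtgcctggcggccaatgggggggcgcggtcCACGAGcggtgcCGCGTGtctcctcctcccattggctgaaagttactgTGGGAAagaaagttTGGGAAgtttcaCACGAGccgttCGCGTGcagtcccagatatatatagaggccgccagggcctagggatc
The TGGGAA core began at -84 and -70 relative to the gene start, where -1 is the last base before it, and the first of these was part of the longer core GTGGGAA. The HES box CACGAG began at -132 and -58, and CACGCG stood on the opposite strand at -120 and -47. Over 15085 promoter windows of genes in the count tables, searched on both strands, 22.6% held TGGGAA, 5.94% held GTGGGAA, 7.47% held CACGAG and 14.9% held CACGCG. The RBPJ core TGGGAA was not found in the windows of the other 6 genes. Such matches describe the letters only.

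For the 3 other genes the capitals mark CG dinucleotides, the usual substrate of TET enzymes. NOTCH1 is chr9:136546049-136546298, JAG1 is chr20:10674000-10674249 and MAML2 is chr11:96343196-96343445, all on the minus strand.
NOTCH1: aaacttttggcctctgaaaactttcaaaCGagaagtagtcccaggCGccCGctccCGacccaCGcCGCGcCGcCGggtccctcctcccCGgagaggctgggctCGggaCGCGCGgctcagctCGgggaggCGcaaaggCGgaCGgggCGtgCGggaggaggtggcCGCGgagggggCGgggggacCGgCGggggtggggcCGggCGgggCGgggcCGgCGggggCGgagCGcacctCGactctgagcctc
JAG1: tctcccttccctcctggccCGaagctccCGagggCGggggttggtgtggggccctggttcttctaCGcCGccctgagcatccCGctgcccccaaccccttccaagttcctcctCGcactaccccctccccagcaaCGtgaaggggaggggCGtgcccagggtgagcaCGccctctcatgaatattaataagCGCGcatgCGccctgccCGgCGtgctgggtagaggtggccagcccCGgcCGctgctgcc
MAML2: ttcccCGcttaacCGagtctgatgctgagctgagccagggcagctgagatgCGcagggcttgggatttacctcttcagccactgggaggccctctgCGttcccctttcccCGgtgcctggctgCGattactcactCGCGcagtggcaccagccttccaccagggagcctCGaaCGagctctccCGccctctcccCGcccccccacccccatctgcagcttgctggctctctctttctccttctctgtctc
These stretches held 33 CG dinucleotides in NOTCH1, 17 in JAG1 and 12 in MAML2. In the whole window of 300 bases the ratio of observed to expected CG was 0.982 for NOTCH1, higher than in 85.8% of promoters, 0.686 for JAG1 and 0.501 for MAML2, against a median of 0.768. The 3 promoters therefore ranged from CG-rich to CG-poor. DNA methylation was not measured in these libraries. The HIF core letters ACGTG and GCGTG, present in 23.8% and 44.4% of windows, were both found for JAG1 (1 and 4 matches). GCGTG alone was found for NOTCH1 and HES1 (2 matches each) and for NOTCH3 and JAG2 (1 match each). MAML2 and NOTCH2 held neither.

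The batch 1 libraries held 31214128 to 39540111 counts and the batch 2 libraries 52095024 to 59263320, the latter mostly single reads of pairs. Levels are given as CPM, the count scaled to the TMM-adjusted library total, with SD over n = 2 libraries. A gene was called where edgeR's quasi-likelihood test gave a Benjamini-Hochberg adjusted p under 0.05 over all genes tested, and all adjusted p-values below come from that test unless DESeq2 is named. TET2 mRNA was not lower in any labelled knockout: it was 67.8 CPM in WT and 78.5, 89.2 and 71.8 CPM in labelled knockouts 1, 2 and 3, so the mRNA does not check these labels. Markers of adrenergic neuroblastoma cells were abundant in every group, with summed levels of 5000.0 to 6936 CPM over 12 genes. Comparisons were made within a batch, since the controls differed in batch as well as in treatment.

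Among the 10 genes, the most abundant per exon length were HEY1, JAG2 and DLL3. In H2O, HEY1 stood at 10.8 CPM per kilobase of exon, JAG2 at 10.5, DLL3 at 5.66, MAML2 at 5.31 and HES1 at 1.66. The receptors were far lower, with NOTCH3 at 0.333, NOTCH1 at 0.225 and NOTCH2 at 0.0503 CPM per kilobase, and JAG1 and DLL1 were lower still at 0.0437 and 0.0333. HEY1 and JAG2 overlapped between libraries, as did NOTCH2 and JAG1, and the other neighbours in this order did not. HEY1 exceeded 67.2% of the 13636 genes tested in batch 1, whereas NOTCH1 exceeded 9.51% and JAG1 1.59%.

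In WT the order was DLL3 (10.2 CPM per kilobase), HEY1 (9.18), JAG2 (8.70), MAML2 (3.46), HES1 (2.65), NOTCH3 (0.908), NOTCH1 (0.660), JAG1 (0.282), NOTCH2 (0.122) and DLL1 (0.00476), with no overlap between neighbours. DLL3 was first in all 4 batch 2 groups and came next after HEY1 and JAG2 in all 3 batch 1 groups. NOTCH1 stood above NOTCH3 at 50 µM CoCl2 (0.452 against 0.269 CPM per kilobase), without overlap, and below it in every other group, with overlapping ranges at 10 µM. HES1 stood above MAML2 in labelled knockouts 1 (3.47 against 1.94) and 3 (3.18 against 1.94), and below it in the other 5 groups. The last 3 places also changed. JAG1 stood above NOTCH2 in WT and labelled knockout 2, without overlap, while in the other groups these 2 genes overlapped. DLL1 stood above both at 10 µM (0.0598 CPM per kilobase, without overlap) and at 50 µM (0.0461, with overlap), and was last elsewhere.

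**Figure D1:**
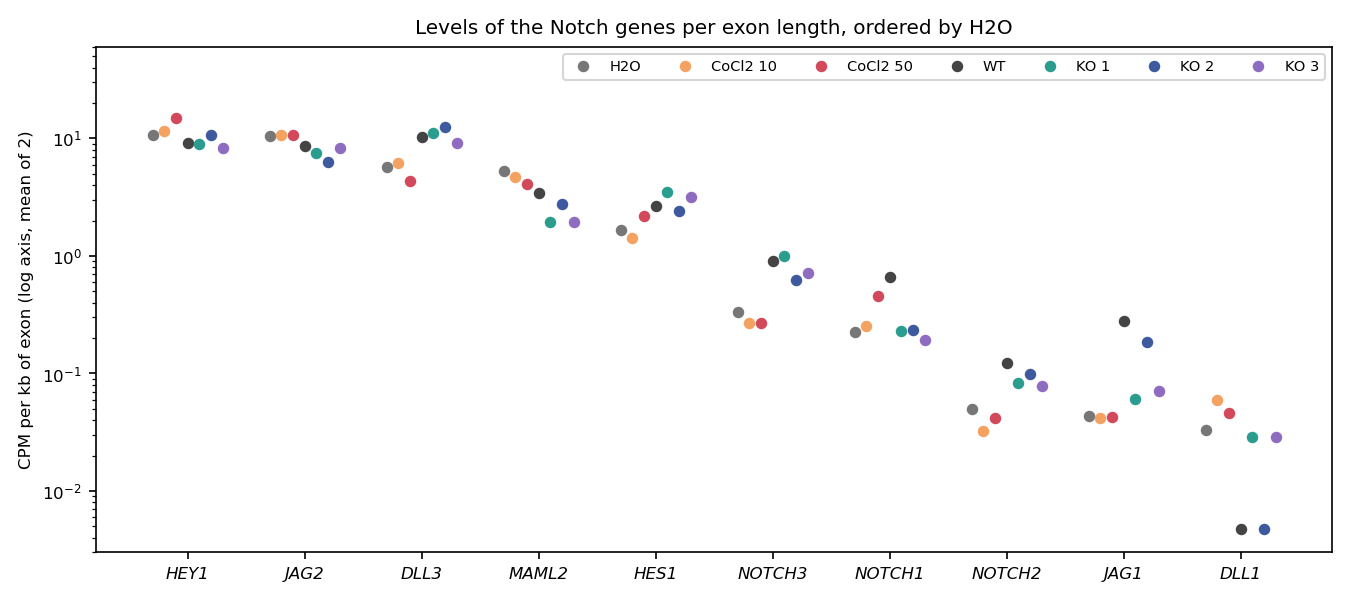
Mean level of each Notch gene in CPM per kilobase of exon (log axis) in the 7 groups, 1 point per group (mean of 2 libraries), ordered by the level in H2O. HEY1, JAG2 and DLL3 lie near 10 in most groups, while the receptors lie near or below 1.

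CoCl2 at 50 µM raised NOTCH1 and the target repressor HEY1, and lowered DLL3 and MAML2. HES1, the other target repressor, was also called higher, but DESeq2 did not call it (adjusted p = 0.109). Its log2 fold change was 0.41, and 0.14 without the replicate 2 library at 50 µM. NOTCH1 was 2.00-fold higher than in H2O and HEY1 1.38-fold higher, while DLL3 was 1.30-fold lower and MAML2 1.29-fold lower. At 10 µM only MAML2 was called among these genes, 1.12-fold lower. The filter on low counts left 9 of the 10 genes in the test, all but DLL1. At 10 µM 1 of the 9 was called, against 22.7% of all genes tested. At 50 µM 5 of the 9 were called, 3 higher and 2 lower, against 61.4% of all genes (30.4% higher and 31.1% lower). A share of 5 in 9 is near that background. Between the 2 doses 5 of the 9 differed, against 52.8% of all genes. The 2 doses share the same H2O libraries, so their comparisons with H2O are not independent. Their median log2 fold changes over the 9 genes were -0.05 at 10 µM and -0.01 at 50 µM, and the median of all genes was 0.00 at 50 µM. Markers of other cell types moved in the same libraries. The summed level of 12 mesenchymal markers was 1528 to 1534 CPM in H2O and 1536 to 1537 CPM at 10 µM. At 50 µM it was 1914 to 1929 CPM, where 4 of 10 tested were called higher and 3 lower. On the log2 scale the higher ones were SNAI2 (0.61), VIM (0.42), FN1 (0.35) and THY1 (0.20). The lower ones were COL3A1 (-0.75), TWIST1 (-0.43) and CD44 (-0.09). The median of the 10 was -0.12, so the sum does not show a rise of these markers as a set. The summed level of 10 endothelial markers was 19.0 to 19.8, 17.0 to 17.2 and 15.1 to 15.6 CPM in H2O, at 10 µM and at 50 µM. At 50 µM 3 of 6 tested were called lower and 1, FLT1, higher (1.44). KDR and TIE1 were at 0 at 50 µM and PECAM1 at 10 µM, but none of these genes passed the low-count filter in batch 1. For 5 Schwann cell markers the summed level was 4.94 to 5.31, 3.99 to 4.86 and 3.25 to 3.49 CPM, with CDH19 at 0 throughout. Of 2 tested ERBB3 was called lower at 50 µM (-1.31). The part of these markers in the results below was not tested.

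Of the receptors, NOTCH1 (chromosome 9, 136494433 to 136546048, minus strand) was the one called. Its level was 2.22 and 2.57 CPM in the H2O libraries, 2.68 and 2.73 CPM at 10 µM, and 5.06 and 4.56 CPM at 50 µM, from counts of 87 to 163. Both 50 µM libraries lay above the other 4. The log2 fold change was 0.17 (SE 0.16, adjusted p = 0.474) at 10 µM, 1.00 (SE 0.14, adjusted p = 1.02e-10) at 50 µM, and 0.83 (SE 0.14, adjusted p = 5.88e-08) between the doses. NOTCH3 (chromosome 19, 15159038 to 15200995, minus strand), a receptor best known from vascular smooth muscle, was measured at 3.24 and 3.03 CPM in H2O, 2.68 and 2.34 CPM at 10 µM, and 2.59 and 2.46 CPM at 50 µM. The 4 treated libraries lay below both H2O libraries, but neither difference passed the test (log2 fold change -0.33, adjusted p = 0.103, and -0.31, adjusted p = 0.0659, each with SE 0.15).

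NOTCH2 (chromosome 1, 119911553 to 120100779, minus strand) had only 16 to 45 counts per library in batch 1. Its level was 0.869 and 1.13 CPM in H2O, 0.456 and 0.849 CPM at 10 µM, and 0.896 and 0.784 CPM at 50 µM, and the groups overlapped at 50 µM. Neither dose was called (log2 fold change -0.60, SE 0.28, adjusted p = 0.115, and -0.26, SE 0.27, adjusted p = 0.412). Without the replicate 2 library at 10 µM the first value was -1.13 and passed (adjusted p = 0.0348). NOTCH2 shares near-identical sequence with its partial copies NOTCH2NLA, NOTCH2NLB and NOTCH2NLC, so its counts are uncertain. In these tables NOTCH2NLA and NOTCH2NLB were at 0 in all 14 libraries and NOTCH2NLC had 10 to 36 counts.

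Of the ligands, DLL3 was the one called. DLL3 (chromosome 19, 39498895 to 39508481, plus strand) is a divergent ligand that acts within the cell on its own Notch receptors, and it marks neuroendocrine tumours. Its level was 14.3 and 15.4 CPM in H2O, 15.9 and 16.6 CPM at 10 µM, and 11.6 and 11.1 CPM at 50 µM. Both 50 µM libraries lay below the other 4, and the log2 fold change was -0.38 (SE 0.07, adjusted p = 8.51e-07) against H2O and -0.52 (SE 0.07, adjusted p = 8.36e-11) against 10 µM. At 10 µM it was 0.13 (SE 0.06, adjusted p = 0.121).

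JAG2 (chromosome 14, 105140982 to 105168824, minus strand), an activating ligand, was the most abundant member in CPM and stayed between 66.4 and 69.5 CPM in all 6 batch 1 libraries. Its log2 fold change was 0.04 (SE 0.03, adjusted p = 0.449) at 10 µM and 0.03 (SE 0.03, adjusted p = 0.447) at 50 µM. JAG1 (chromosome 20, 10637684 to 10673999, minus strand), the activating ligand affected in Alagille syndrome, had 10 to 18 counts per library. Its level was 0.409 and 0.403 CPM in H2O, 0.313 and 0.463 CPM at 10 µM, and 0.320 and 0.476 CPM at 50 µM, so the groups overlapped. With SE of 0.39 and 0.40 on the log2 scale, a change of the size seen for NOTCH3 was not detectable for JAG1 at this depth. DLL1 (chromosome 6, 170282206 to 170306565, minus strand), an activating ligand, had 4 to 10 counts in batch 1 and 0 to 6 in batch 2. Its exons overlap those of FAM120B, which is read from the other strand, and reads were counted regardless of strand, so these few counts cannot be assigned to DLL1. In the WT replicate 2 and labelled knockout 2 replicate 1 libraries its count was 0, which allows up to 0.106 and 0.110 CPM (3 read pairs taken as 6 counts, counting error only).

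Both target repressors were called higher at 50 µM, though the HES1 call did not hold in DESeq2. HEY1 (chromosome 8, 79764010 to 79767857, minus strand) was measured at 33.7 and 35.7 CPM in H2O, 36.8 and 37.4 CPM at 10 µM, and 48.8 and 47.3 CPM at 50 µM. The 50 µM libraries stood clear of the other 4, and the log2 fold change was 0.47 (SE 0.04, adjusted p = 2.96e-21) against H2O and 0.37 (SE 0.04, adjusted p = 6.09e-15) against 10 µM. At 10 µM it was 0.10 (SE 0.04, adjusted p = 0.0966).

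HES1 (chromosome 3, 194136148 to 194138732, plus strand) was measured at 3.17 and 3.68 CPM in H2O, 2.96 and 2.91 CPM at 10 µM, and 3.78 and 5.26 CPM at 50 µM. The 2 libraries at 50 µM lay far apart, and the lower of them was close to the higher H2O library. The log2 fold change at 50 µM was 0.41 (SE 0.13, adjusted p = 0.00384), and against 10 µM it was 0.64 (SE 0.14, adjusted p = 3.02e-05). Without the replicate 2 library at 50 µM these were 0.14 (adjusted p = 0.518) and 0.36 (adjusted p = 0.0918), and without H2O replicate 1 the first was 0.31 (adjusted p = 0.0723). DESeq2 did not call HES1 at 50 µM (adjusted p = 0.109), nor did a fit of all 14 libraries (adjusted p = 0.079).

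MAML2 (chromosome 11, 95976598 to 96343195, minus strand) went down with dose. It was measured at 37.7 and 38.0 CPM in H2O, 32.6 and 34.8 CPM at 10 µM, and 29.8 and 28.9 CPM at 50 µM, with no overlap between the 3 groups. The log2 fold change was -0.16 (SE 0.04, adjusted p = 0.00183) at 10 µM, -0.37 (SE 0.05, adjusted p = 6.94e-13) at 50 µM, and -0.20 (SE 0.05, adjusted p = 8.98e-05) between the doses. The call at 10 µM was lost without the replicate 1 library of that dose (-0.12, adjusted p = 0.108), in DESeq2 (adjusted p = 0.104) and in a fit of all 14 libraries (adjusted p = 0.182). The count of called members at 10 µM was then 0, and it was 2 without the replicate 2 library, where NOTCH2 joined MAML2.

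**Figure D2:**
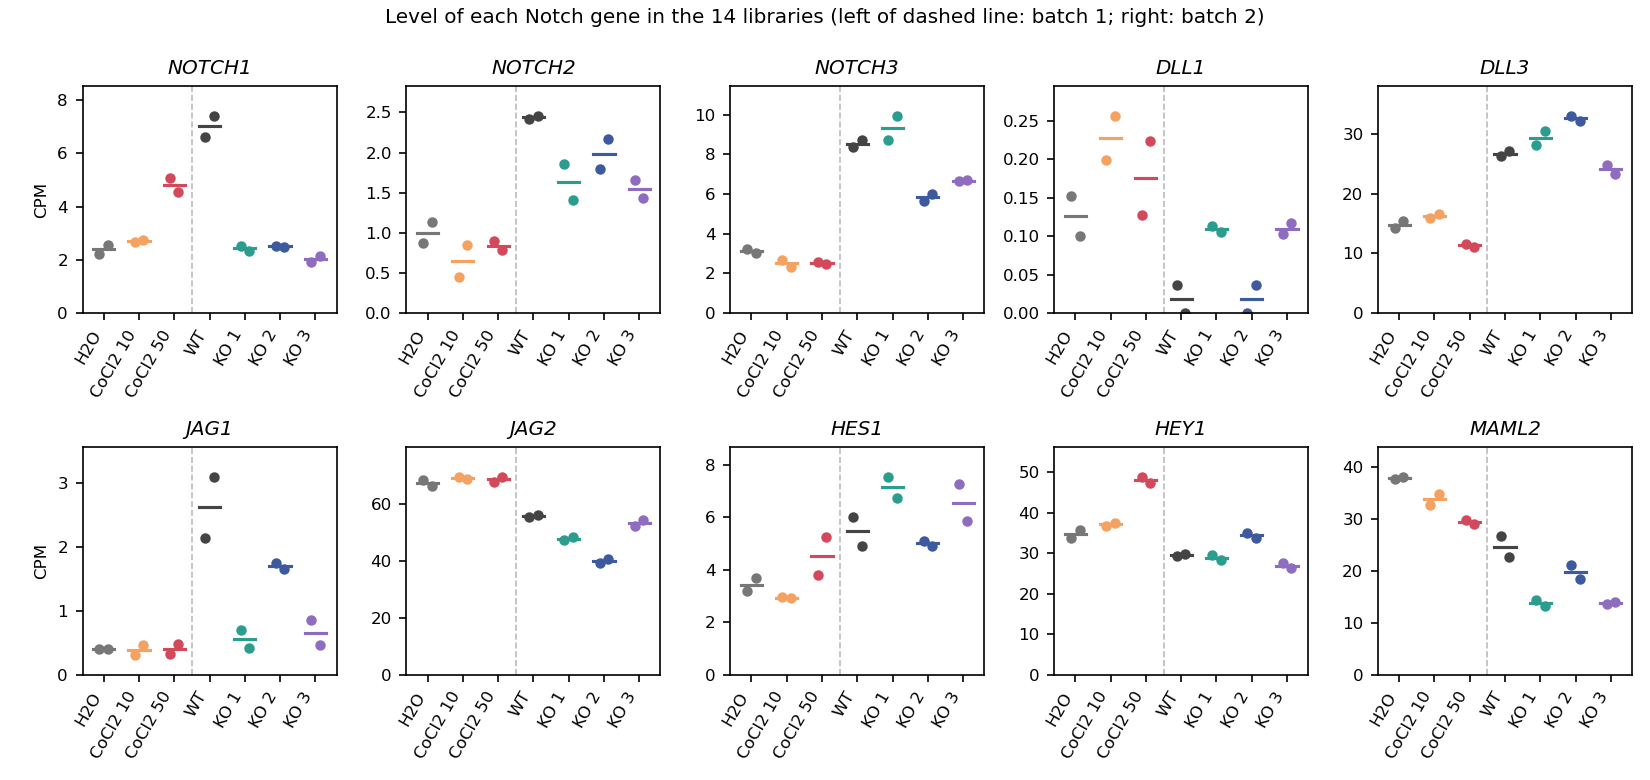
Level of each Notch gene in CPM (vertical axes, each from 0) in the 14 libraries, 1 point per library, with the group mean as a bar. Batch 1 (H2O, 10 µM and 50 µM CoCl2) is left of the dashed line and batch 2 (WT and labelled knockouts KO 1, KO 2 and KO 3) right of it; NOTCH1 lies at 4.56 to 5.06 CPM at 50 µM and at 1.91 to 2.53 CPM in the labelled knockouts.

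In batch 2, NOTCH1, JAG1 and MAML2 were called lower than WT in each of the 3 labelled knockouts. NOTCH1 was 2.80-fold to 3.47-fold lower. JAG1 was 4.69-fold, 1.54-fold and 3.89-fold lower in labelled knockouts 1, 2 and 3, and MAML2 was 1.78-fold, 1.25-fold and 1.79-fold lower. In labelled knockout 2 DESeq2 did not call JAG1 (adjusted p = 0.202). Without WT replicate 1 the log2 fold change of MAML2 there was -0.20, against -0.32 with all libraries. No member was called higher in all 3. Over all genes tested, 2.84% were called lower in all 3 labelled knockouts, and the 3 comparisons share the same WT libraries.

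In labelled knockout 1, 5 of the 9 genes were called, 1 higher and 4 lower, against 17.5% of the 14061 genes tested (7.79% higher and 9.72% lower). In labelled knockout 2, 7 were called, 2 higher and 5 lower, against 26.3% of all genes (14.3% lower, the rest higher). In labelled knockout 3, 5 were called, all lower, against 18.9% of all genes (8.90% higher and 9.96% lower). Leaving out any 1 WT or labelled knockout 3 library took the last count to 3, as did DESeq2. The genes then lost were NOTCH2 and NOTCH3. Over the 9 genes the median log2 fold changes were -0.22, -0.32 and -0.36, against 0.00 for all genes in labelled knockout 2 and -0.00 in the other two. Markers of other cell types moved in the same libraries. Of 10 endothelial markers, 9, 7 and 9 were called lower, and FLT1 was called higher in labelled knockout 2 (log2 fold change 1.26, adjusted p = 8.72e-29). Their summed level was 49.2 to 49.6 CPM in WT, 25.2 to 25.3 in labelled knockout 1, 44.5 to 45.4 in labelled knockout 2 and 23.8 to 24.0 in labelled knockout 3, with no marker at 0 in any of these groups. In labelled knockout 2 FLT1 alone made up 23.6 to 24.3 CPM of the sum, against 9.02 to 10.9 CPM in WT, so the sum there does not show the fall of the 7 others, of which PECAM1 was 15.3-fold and KDR 10.8-fold lower. Of 11 tested mesenchymal markers, 8, 6 and 7 were called lower and 2, 1 and 1 higher, namely TWIST1 (0.26) and VIM (0.09) in labelled knockout 1, THY1 (0.13) in 2 and TWIST1 (0.30) in 3. Their summed level was 1755 to 1767 CPM in WT and 1301 to 1347, 1431 to 1457 and 1212 to 1239.7 CPM in the labelled knockouts. The mesenchymal gene PRRX1 was at 0 in labelled knockouts 1 and 3, but it was not called in any labelled knockout. Its adjusted p was 0.0585, 0.449 and 0.0548 in labelled knockouts 1, 2 and 3. COL1A2 was at 0 in WT and labelled knockout 2 and was not tested. Schwann cell markers summed to 11.1 to 11.9 CPM in WT and 7.72 to 8.18, 5.02 to 5.92 and 7.37 to 8.01 CPM in labelled knockouts 1, 2 and 3. ERBB3 was called lower in all 3 (1.65-fold, 3.13-fold and 1.60-fold). CDH19 was at 0 in WT and labelled knockouts 1 and 2, and SOX10 in labelled knockout 1. The part of these markers in the Notch results was not tested, and in bulk RNA fewer cells of a type and less RNA per cell cannot be told apart.

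NOTCH1 was the receptor with the largest difference. It was measured at 6.62 and 7.42 CPM in WT, 2.53 and 2.33 CPM in labelled knockout 1, 2.51 and 2.50 CPM in labelled knockout 2, and 1.91 and 2.14 CPM in labelled knockout 3. All 6 knockout libraries lay below both WT libraries. The log2 fold changes were -1.53 (SE 0.17, adjusted p = 1.04e-14), -1.49 (SE 0.17, adjusted p = 1.69e-14) and -1.80 (SE 0.18, adjusted p = 6.29e-18). These 3 values spanned 0.31, and a difference among the labelled knockouts did not pass the test (adjusted p = 0.484). With 1 library left out, in DESeq2 and under the other settings tried, the 3 values stayed between -1.87 and -1.41 and each was called.

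NOTCH3 differed among the labelled knockouts. Its level was 8.37 and 8.72 CPM in WT, 8.75 and 9.96 CPM in labelled knockout 1, 5.67 and 6.02 CPM in labelled knockout 2, and 6.66 and 6.69 CPM in labelled knockout 3. Libraries of labelled knockouts 2 and 3 lay below WT and those of labelled knockout 1 did not. Against WT its log2 fold changes were 0.13 (SE 0.12, adjusted p = 0.501), -0.55 (SE 0.13, adjusted p = 0.000429) and -0.36 (SE 0.13, adjusted p = 0.0343), and they differed among the labelled knockouts by 0.68 (adjusted p = 5.93e-06). In labelled knockout 3 the call was lost with any 1 WT or labelled knockout 3 library left out (adjusted p = 0.0889 to 0.167) and in DESeq2 (adjusted p = 0.0613).

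NOTCH2 stood at 2.42 and 2.46 CPM in WT and between 1.41 and 2.17 CPM in the 6 knockout libraries, all below WT, from 74 to 138 counts. The log2 fold changes were -0.58 (SE 0.24, adjusted p = 0.081), -0.30 (SE 0.23, adjusted p = 0.364) and -0.65 (SE 0.24, adjusted p = 0.046). Only the last passed, and it failed with any 1 WT or labelled knockout 3 library left out (adjusted p = 0.118 to 0.203), in DESeq2 (adjusted p = 0.0947), with edgeR's older method (adjusted p = 0.0621) and without a filter on low counts (adjusted p = 0.0517). The shared sequence with the NOTCH2NL copies applies here too.

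Of the ligands, JAG1 fell furthest. It was measured at 2.15 and 3.10 CPM in WT, 0.704 and 0.424 CPM in labelled knockout 1, 1.76 and 1.66 CPM in labelled knockout 2, and 0.854 and 0.468 CPM in labelled knockout 3, from 24 to 174 counts. Every knockout library lay below WT, and those of labelled knockouts 1 and 3 lay below those of labelled knockout 2. Against WT the changes on the log2 scale were -2.23 (SE 0.31, adjusted p = 5.12e-10), -0.62 (SE 0.23, adjusted p = 0.037) and -1.96 (SE 0.30, adjusted p = 1.08e-08), and they differed among the labelled knockouts by 1.61 (adjusted p = 1.99e-05). The 2 WT libraries were themselves well apart. In labelled knockout 2 the value was -0.33 (adjusted p = 0.502) without WT replicate 2 and was not called without either library of that knockout (adjusted p = 0.116 and 0.16) or in DESeq2 (adjusted p = 0.202).

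JAG2 was measured at 55.3 and 56.0 CPM in WT, 47.3 and 48.3 CPM in labelled knockout 1, 39.2 and 40.8 CPM in labelled knockout 2, and 52.3 and 54.4 CPM in labelled knockout 3. The log2 fold changes were -0.22 (SE 0.06, adjusted p = 0.00185), -0.48 (SE 0.06, adjusted p = 7.02e-13) and -0.06 (SE 0.06, adjusted p = 0.486). They differed among the labelled knockouts by 0.41 (adjusted p = 2.08e-09), with labelled knockout 2 furthest from WT, whereas for JAG1 it was nearest.

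DLL3 was measured at 26.3 and 27.1 CPM in WT, 28.1 and 30.6 CPM in labelled knockout 1, 33.1 and 32.2 CPM in labelled knockout 2, and 24.8 and 23.4 CPM in labelled knockout 3. It was called higher in labelled knockout 2 (log2 fold change 0.29, SE 0.07, adjusted p = 0.000491). In labelled knockouts 1 and 3 it was 0.14 (adjusted p = 0.195) and -0.14 (adjusted p = 0.173), and the 3 values differed by 0.43 (adjusted p = 3.99e-07).

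Neither target gene was called lower in any labelled knockout. HEY1 was measured at 29.3 and 29.9 CPM in WT, 29.5 and 28.3 CPM in labelled knockout 1, 35.0 and 33.8 CPM in labelled knockout 2, and 27.5 and 26.4 CPM in labelled knockout 3. Its log2 fold changes were -0.04 (SE 0.07, adjusted p = 0.779), 0.22 (SE 0.07, adjusted p = 0.00899) and -0.13 (SE 0.07, adjusted p = 0.187), and they differed by 0.35 (adjusted p = 1.55e-05). The call in labelled knockout 2 was lost without WT replicate 1 (adjusted p = 0.081) or without that knockout's replicate 1 (adjusted p = 0.111).

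HES1 was measured at 6.02 and 4.90 CPM in WT, 7.53 and 6.74 CPM in labelled knockout 1, 5.11 and 4.90 CPM in labelled knockout 2, and 7.26 and 5.85 CPM in labelled knockout 3. Only the libraries of labelled knockout 1 lay clear above WT. The log2 fold changes were 0.38 (SE 0.14, adjusted p = 0.0424), -0.12 (SE 0.15, adjusted p = 0.605) and 0.27 (SE 0.14, adjusted p = 0.182), with a difference among the labelled knockouts of 0.51 (adjusted p = 0.00574). The rise in labelled knockout 1 was not called without WT replicate 2 (0.24, adjusted p = 0.404), without either library of that knockout (adjusted p = 0.261 and 0.0699) or in DESeq2 (adjusted p = 0.109). The difference among labelled knockouts was not called without labelled knockout 2 replicate 2 (0.48, adjusted p = 0.0788).

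MAML2 was measured at 26.7 and 22.6 CPM in WT, 14.4 and 13.3 CPM in labelled knockout 1, 21.1 and 18.4 CPM in labelled knockout 2, and 13.8 ± 0.320 CPM in labelled knockout 3 (SD, n = 2; counts of 794 and 719). All 6 knockout libraries lay below WT, and those of labelled knockouts 1 and 3 lay below those of labelled knockout 2, as for JAG1. The log2 fold changes were -0.83 (SE 0.09, adjusted p = 2.57e-16), -0.32 (SE 0.08, adjusted p = 0.000867) and -0.84 (SE 0.09, adjusted p = 1.76e-16), and they differed by 0.52 (adjusted p = 2.93e-08). In labelled knockout 2 the value was -0.20 (adjusted p = 0.146) without WT replicate 1 and -0.23 (adjusted p = 0.0973) without that knockout's replicate 2. Over the 9 tested genes, 7 differed among the labelled knockouts, against 37.6% of all genes tested.

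**Figure D3:**
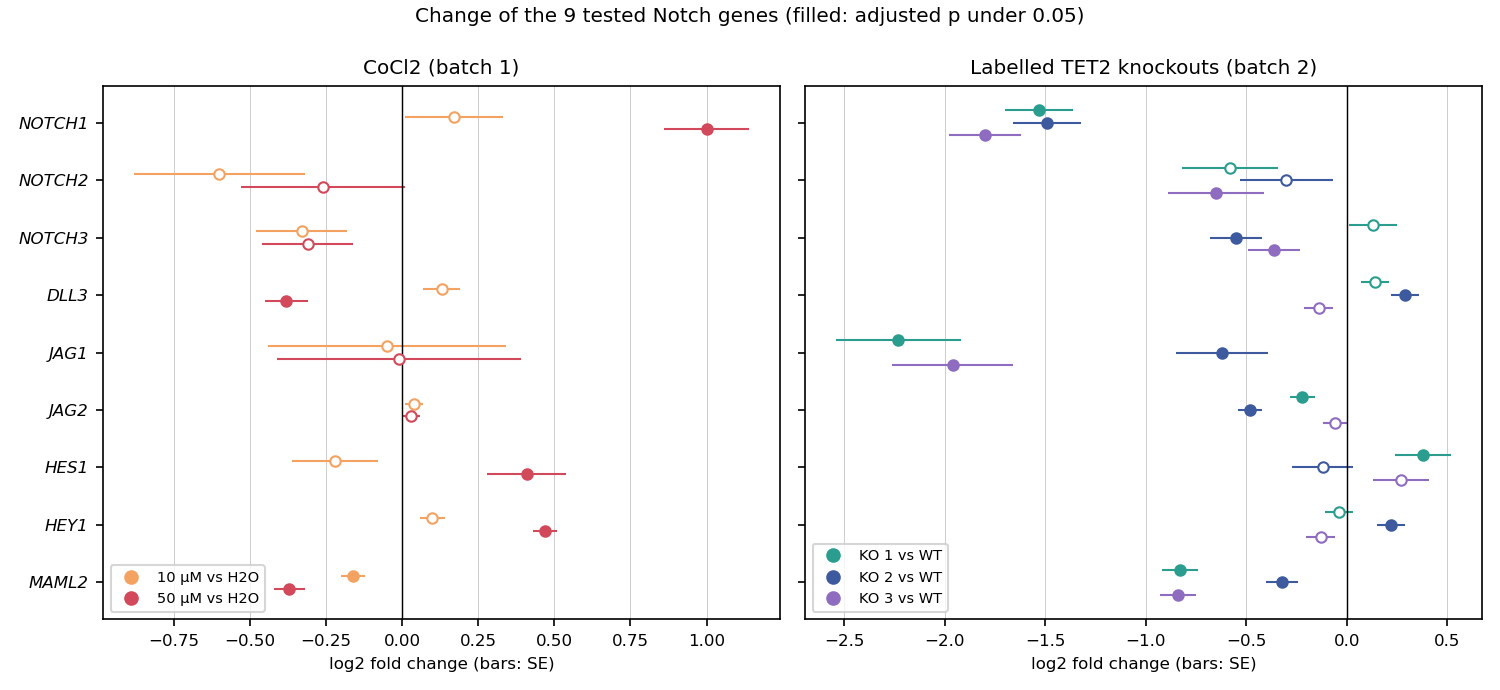
Log2 fold change (horizontal axes, bars are SE) of the 9 tested Notch genes at each CoCl2 dose against H2O (left) and in each labelled knockout against WT (right); filled points have an adjusted p under 0.05. NOTCH1 lies at 1.00 at 50 µM and between -1.80 and -1.49 in the labelled knockouts, and the 2 panels have different horizontal scales.

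The rest of the pathway was read from 66 further genes in 6 lists, of which 57 were tested in batch 1 and 59 in batch 2. At 50 µM CoCl2 13 of the 57 were called higher and 26 lower, against 30.4% and 31.1% of all genes. At 10 µM 6 were called higher and 11 lower, against 11.6% and 11.1% of all genes. In labelled knockouts 1, 2 and 3, 2, 5 and 1 of the 59 were called higher and 8, 10 and 13 lower. Together these were 10, 15 and 14 genes, against 17.5%, 26.3% and 18.9% of all genes called. With 1 library left out the number called was 9 to 12 at 10 µM (against 17), 5 to 7 in labelled knockout 1 (against 10) and 5 to 12 in labelled knockout 3 (against 14), lowest in the last 2 without WT replicate 1. At 10 µM DESeq2 called 6 and the fit of all 14 libraries 5. The medians of these lists together lay between -0.06 and -0.02 in the 5 comparisons with a control.

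Receptor glycosylation genes, which modify the Notch extracellular domain and tune its response to ligands, were called at 50 µM in 6 of 6 cases, 5 lower and 1 higher, with a median log2 fold change of -0.31. Over all genes 61.4% were called there, 30.4% higher and 31.1% lower, and the counts at 50 µM in the other lists are to be read against the same shares. The largest was MFNG, a fringe glycosyltransferase, at -2.37 (SE 0.46, adjusted p = 2.75e-06), from counts of 35 and 21 in H2O and 5 and 4 at 50 µM. LFNG, another fringe enzyme, was -0.36 (adjusted p = 0.0259) at 50 µM and -0.58 (SE 0.16, adjusted p = 0.00427) in labelled knockout 3, where it was not called without that knockout's replicate 1 (adjusted p = 0.0748). No gene of this list was called in labelled knockouts 1 and 2, where edgeR's unadjusted p was under 0.05 for 1 and 0 of the 6.

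Among other receptors and ligands, 5 of 7 were called at 50 µM, all lower, with a median of -0.41, against 61.4% of all genes called and 31.1% called lower. MFAP2, a microfibril protein that binds Notch ligands, went from 23.2 ± 0.0529 CPM in H2O through 17.1 ± 0.138 CPM at 10 µM to 8.34 ± 0.117 CPM at 50 µM (SD, n = 2), and its log2 fold change at 50 µM was -1.47 (SE 0.07, adjusted p = 7.79e-48). It was also lower in labelled knockout 2 (-1.01, SE 0.13, adjusted p = 1.32e-11) and labelled knockout 1 (-0.37, adjusted p = 0.0153), but in labelled knockout 1 it was -0.20 (adjusted p = 0.446) without WT replicate 2 and not called without either library of that knockout (adjusted p = 0.0916 and 0.0881). NOTCH4, the receptor known from endothelium, was lower at 10 µM (-0.53, SE 0.12, adjusted p = 0.000327) and at 50 µM (-0.47, SE 0.12, adjusted p = 0.000486), but without H2O replicate 2 neither passed (-0.37 and -0.31, adjusted p = 0.0708 and 0.0674). DESeq2 did not call NOTCH4 at 10 µM (adjusted p = 0.0603). In labelled knockouts 1, 2 and 3 its log2 fold changes were 0.81, 0.66 and 0.08, none called (adjusted p = 0.136, 0.214 and 0.931). The fit of all 14 libraries called the first of these (adjusted p = 0.0463). NOTCH4 overlaps GPSM3, so its counts are uncertain. DLK1, a membrane protein related to the ligands, was the most abundant of these at 1242 ± 17.1 CPM in WT and was -0.31 (SE 0.03, adjusted p = 5.08e-19) in labelled knockout 3. CNTN1, a contactin that binds Notch, was -0.25 (SE 0.04, adjusted p = 4.06e-09) in labelled knockout 1. The DLK1 values of -0.23 and -0.40 in labelled knockouts 1 and 2 are given after they were seen. DLL4, an endothelial ligand, had 0 to 12 counts per library and was not tested.

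Receptor processing genes, the proteases and γ-secretase subunits, were called in 7 of 9 cases at 50 µM, 6 lower and 1 higher, with a median of -0.14, against 61.4% of all genes. The higher one was NCSTN, a γ-secretase subunit, which was also called higher in labelled knockouts 1 (0.12, adjusted p = 0.0403) and 2 (0.16, adjusted p = 0.00376). Without WT replicate 2 neither was called (0.08 and 0.10, adjusted p = 0.405 and 0.186), and without labelled knockout 1 replicate 2 the first was 0.06 (adjusted p = 0.565). In labelled knockout 3 APH1A, another subunit, was higher by 0.14 (adjusted p = 0.00334), a call lost without WT replicate 1 or that knockout's replicate 1 (adjusted p = 0.0665 and 0.0698). Of 13 ubiquitination and trafficking genes, 3 were called higher and 2 lower at 50 µM. DTX4, a ubiquitin ligase of the Deltex family, was higher by 0.48 against both H2O (SE 0.20, adjusted p = 0.0269) and 10 µM (adjusted p = 0.0337), from 53 to 79 counts, but without the replicate 2 library at 50 µM both values were 0.30 (adjusted p = 0.352 and 0.386). The first was also lost without H2O replicate 1 (adjusted p = 0.144), the second without either 10 µM library (adjusted p = 0.0516 and 0.178), and DESeq2 called neither (adjusted p = 0.197 and 0.227). DTX4 overlaps MPEG1, and APH1A overlaps C1orf54, each on the other strand. MIB2, which ubiquitinates ligands, was higher by 0.23 at 50 µM than at 10 µM (SE 0.06, adjusted p = 0.000632), and NEURL1B, of the NEURL1 family, by 0.28 in labelled knockout 2 (adjusted p = 0.000629). DTX3L, a ubiquitin ligase, was lower in labelled knockouts 1 (-0.49, SE 0.08, adjusted p = 4.59e-07), 2 (-0.36, adjusted p = 0.000195) and 3 (-0.51, SE 0.08, adjusted p = 1.42e-07), and its span overlaps PARP9 on the opposite strand. NEURL1, which ubiquitinates ligands, was lower in labelled knockout 2 (-0.58, SE 0.10, adjusted p = 9.31e-07) and at 10 µM (-0.24, adjusted p = 0.00307), the latter not without that dose's replicate 2 (adjusted p = 0.123) or in DESeq2 (adjusted p = 0.152).

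In the nuclear complex, 8 of 18 genes were called higher and 5 lower at 50 µM, with a median of -0.02. Exons of MAML3, CTBP2 and KDM5A overlap MGST2, ZRANB1 and CCDC77 on the other strand. Those of KAT2A overlap AC099811.2 on the same strand, so the counts of these genes are uncertain. RBPJ, the DNA-binding partner of Notch, reached 267 ± 0.227 CPM at 50 µM, from 246 ± 2.78 CPM in H2O (SD, n = 2), and its log2 fold change was 0.12 (SE 0.02, adjusted p = 1.58e-07). It was not called in any labelled knockout (-0.03 to -0.01). The 2 other Mastermind-like genes had smaller values than MAML2. MAML1 was -0.06 (adjusted p = 0.121) at 50 µM and was called in labelled knockout 3 (-0.16, adjusted p = 0.0086) but not in 1 (-0.04) or 2 (-0.03), and that call was lost without WT replicate 1 or that knockout's replicate 2 (adjusted p = 0.0797 and 0.179). MAML3 was -0.28 (SE 0.03, adjusted p = 3.50e-13) at 50 µM and was called in labelled knockout 2 (-0.20, adjusted p = 0.00477) but not in 1 or 3 (-0.11 each); without WT replicate 1 the value in labelled knockout 2 was -0.12 (adjusted p = 0.239), without that knockout's replicate 1 it was not called (adjusted p = 0.0676), and without WT replicate 2 labelled knockout 3 passed (adjusted p = 0.0485). L3MBTL3, which binds RBPJ and represses targets, was -0.88 (SE 0.11, adjusted p = 3.32e-13) at 50 µM, and the acetyltransferase KAT2A was 0.37 (SE 0.03, adjusted p = 1.47e-22). Its relative KAT2B was 0.34 (SE 0.11, adjusted p = 0.00695), not called without the replicate 2 library at 50 µM or H2O replicate 2 (adjusted p = 0.0698 and 0.0784) or in DESeq2 (adjusted p = 0.0978). At 10 µM SPEN, a corepressor, was 0.13 (adjusted p = 2.66e-06) and the acetyltransferase CREBBP 0.10 (adjusted p = 0.0145), the latter lost without H2O replicate 2 or that dose's replicate 2 (adjusted p = 0.301 and 0.123) and in DESeq2 (adjusted p = 0.247). The corepressor CTBP2 was 0.11 (adjusted p = 0.0397) in labelled knockout 1, a call lost with any 1 WT or labelled knockout 1 library left out (adjusted p = 0.0877 to 0.204), and the demethylase KDM5A was 0.18 (adjusted p = 0.00143) in labelled knockout 2.

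Of 10 further genes grouped as targets, 4 were tested in batch 1, and at 50 µM 3 of them were called lower and none higher. Whether each of them responds to Notch in these cells was not tested. HES6, which opposes HES1, was -0.48 (SE 0.08, adjusted p = 3.16e-07) at 50 µM and -0.36 (SE 0.10, adjusted p = 0.00247) in labelled knockout 2, the latter -0.23 (adjusted p = 0.184) without WT replicate 1. NRARP, a feedback inhibitor, was -0.03 (adjusted p = 0.744) at 50 µM and 0.18 (SE 0.07, adjusted p = 0.0485) at 10 µM, where leaving out either H2O library or replicate 1 of that dose ended the call (adjusted p = 0.132 to 0.471). HES7 was -1.26 (SE 0.34, adjusted p = 0.00173) in labelled knockout 2, from counts of 85 and 86 in WT and 41 and 30, and it missed the threshold without that knockout's replicate 2 (-1.06, adjusted p = 0.0536). HEYL had 2 to 24 counts and was not called in any labelled knockout, and HES4, HES5 and HEY2 had at most 8 counts in any library and were not tested.

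**Figure D4:**
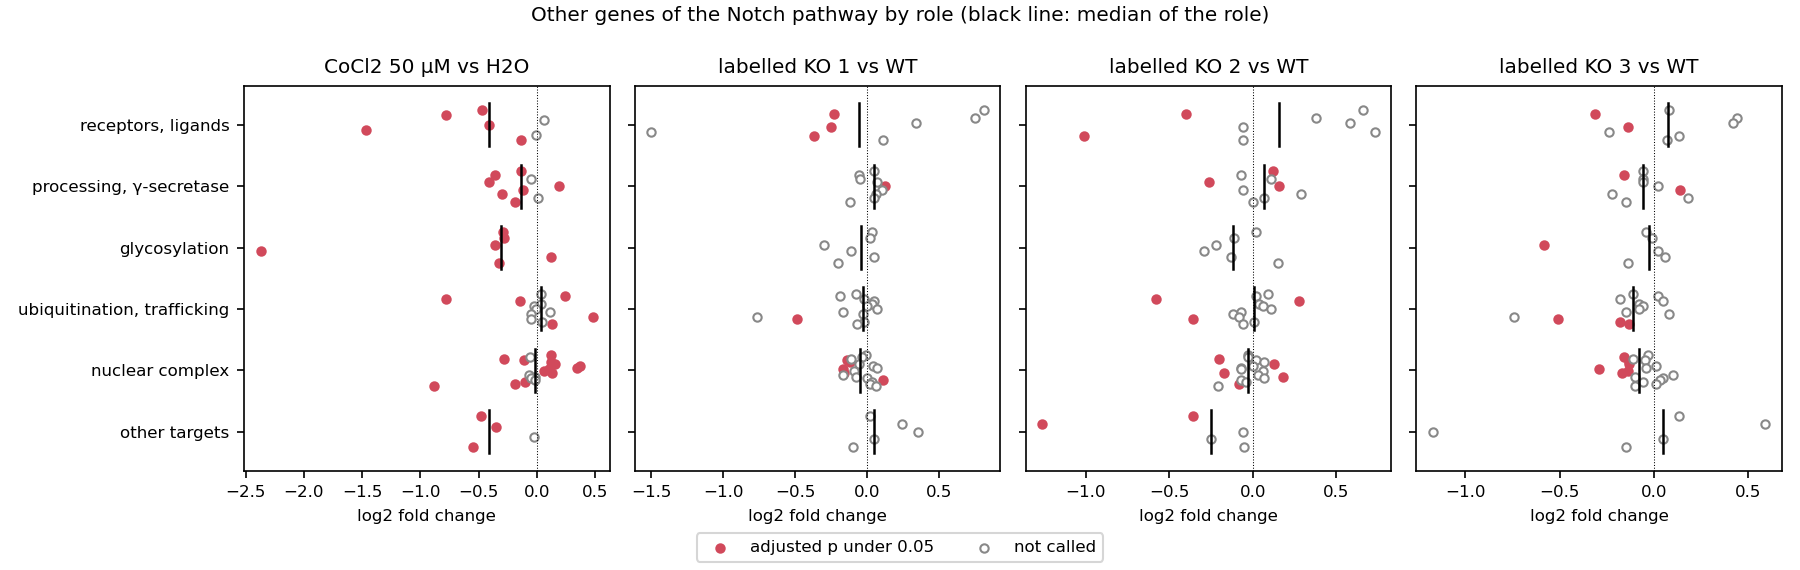
Log2 fold change (horizontal axes) of the tested genes of the 6 further Notch lists at 50 µM CoCl2 against H2O and in each labelled knockout against WT, 1 point per gene, filled where the adjusted p was under 0.05, with the list median as a black line. Medians at 50 µM lie at -0.41 for receptors and ligands, -0.31 for glycosylation and -0.02 for the nuclear complex; the panels have different horizontal scales.

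The genes most like each member were sought among 10128 genes by Pearson's r of log2(CPM + 0.5) over the 14 libraries, centred on the batch mean. These values are descriptions, since the libraries share groups and batches. NOTCH1 was most like HGF (r = 0.950), ENG (r = 0.949) and KIRREL1 (r = 0.949), where ENG encodes the TGF-β coreceptor endoglin. HEY1 was most like SYT1 and HEATR5A (r = 0.979 each) and TIMP1 (r = 0.977), and DLL3 was most like the transcription factor INSM2 (r = 0.961). MAML2 was most like FSTL1 (r = 0.965), MICAL2 (r = 0.952) and ETS1 (r = 0.944). JAG1 was most like SH3BGRL (r = 0.958), CD44 (r = 0.942) and SASH1 (r = 0.940), but within batch 1 those 3 values were 0.0796, -0.104 and -0.0282, so the likeness rests on batch 2. JAG2 was most like AKNA (r = 0.982), NHS (r = 0.961) and TFEB (r = 0.961). Within batch 1 those 3 values were 0.529, -0.449 and 0.706, and within batch 2 they were 0.987, 0.989 and 0.967. The best matches of NOTCH2, NOTCH3 and HES1 were LPP (r = 0.889), ACAD10 (r = 0.905) and GTPBP3 (r = 0.913).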

How the data were processed

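RNA was isolated with TRIzol and libraries were made by a strand-specific oligo-dT protocol, per the labels' protocols. The deposited files hold raw counts for each gene. Per the file headers, the authors counted reads over exons of protein-coding GENCODE 33 genes with featureCounts, version 1.5.3 for batch 1 and 2.0.5 for batch 2, without a strand option. The submitters' processing notes also list Trimmomatic 0.36, STAR 2.6.1d and GRCh38. Of counts from 1 to 10, 39.0% to 42.3% were even in batch 1 and 77.3% to 80.5% in batch 2, so batch 2 counts overstate fragments.

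Each batch was fitted separately in R 4.3.3 with edgeR 4.0.16 (filterByExpr, TMM, quasi-likelihood F-test with legacy = FALSE and robust = TRUE, dispersion of at least 0.0001, adjusted over all genes tested), in 7 comparisons. SE was derived from the fold change and F. In simulated counts 97% of 1.5-fold changes were recovered for 50 µM against H2O and 92% for labelled knockout 3. The changed genes were drawn only from those above a minimum total count, with the same dispersion for every gene in a batch. These rates therefore do not cover low-count members such as JAG1 and NOTCH2 in batch 1. Alternatives were DESeq2 1.42.0, RLE normalization, no filter, edgeR's older method, a replicate block, 1 fit of all 14 libraries, batch 2 counts divided by 2, and each library left out.

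The genes, the lists and the tests were chosen with earlier results of these data known. Every member was named in each comparison. From the further lists, the 3 largest called rises and falls in each comparison were named. NOTCH4, DLL4, RBPJ, MAML1, MAML3, HES4, HES5, HES6, HEY2, HEYL and NRARP were named too. For each member, the 3 genes with the highest r among those of at least 5 mean CPM in each batch were sought. All 3 are given for NOTCH1, HEY1, MAML2, JAG1 and JAG2, and only the first for the other members tested. One further pathway gene and 1 marker gene are not reported here.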

Additional observations from a re-analysis of the deposited data

Results flagged for a closer look

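Several results differed among the 3 labelled knockouts by the quasi-likelihood F-test of edgeR on 2 degrees of freedom; each value below is the span from the lowest to the highest of the 3 log2 fold changes against WT, which share the WT libraries. Among the Notch genes the spans were 1.61 for JAG1, 0.68 for NOTCH3, 0.52 for MAML2, 0.51 for HES1, 0.43 for DLL3, 0.41 for JAG2 and 0.35 for HEY1. JAG1, MAML2 and HES1 were nearest to WT in labelled knockout 2, while NOTCH3, JAG2, DLL3 and HEY1 were furthest from WT there.

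Among the further pathway genes the spans were 1.86 for HES7, 1.14 for MFAP2, 0.55 for NEURL1, 0.49 for HES6, 0.28 for KDM5A, 0.26 for CREBBP, 0.23 for NEURL1B, 0.22 for SPEN, 0.20 for APH1A, 0.19 for CNTN1, 0.18 for CTBP2, 0.17 for DLK1, and 0.13 each for MAML1 and NCSTN. The spans of MAML1, NCSTN and NEURL1B lost the call without 1 or more libraries (adjusted p = 0.0545 to 0.585). HES7 and MFAP2 were lowest in labelled knockout 2 (-1.26 and -1.01) and highest in labelled knockout 3 (0.59 and 0.13, neither called there). Of the endothelial markers 4 of 10 also differed among the labelled knockouts, which is near the 37.6% of all genes tested. So did 11 of 11 tested adrenergic, 10 of 11 tested mesenchymal and 1 of 3 tested Schwann cell markers. FLT1 was 2.40-fold higher than WT in labelled knockout 2 and 1.33-fold and 2.50-fold lower in 1 and 3. KDR was 10.8-fold, 9.28-fold and 2.78-fold lower in 2, 1 and 3. The part of the markers in the differences of the Notch genes was not tested.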

How the results depend on the processing

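Of 35 called member results, 10 lost the call under at least 1 alternative (35 of 388 refits), none reversed, and the libraries concerned are named in the report. Members called at 10 µM CoCl2 numbered 0 in DESeq2 and in the fit of all 14 libraries and 0 to 2 with 1 library left out; in labelled knockout 3 they numbered 3 in DESeq2 and 3 with each library left out. All genes called at 10 µM numbered 1121 in DESeq2, 796 in the fit of all 14 libraries and 1860 to 2258 with 1 library left out, against 3098; between doses the fit of all 14 libraries gave 4674, against 7198. Leaving out 1 library gave 1375 to 1920 genes in labelled knockout 1 (against 2462), 2406 to 2828 in labelled knockout 2 (against 3698) and 1568 to 2390 in labelled knockout 3 (against 2653). With 1 library left in a group, that library is assumed to vary like the others. The cause of these shifts was not tested.

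The replicate numbers did not pair the libraries (correlation of deviations -0.059 to 0.02 in batch 1 and -0.131 to 0.103 in batch 2). With a replicate block, all genes called numbered 2968, 8303 and 7113 in the 3 CoCl2 comparisons and 2228, 3502, 2458 and 5054 in labelled knockouts 1, 2, 3 and among them; members called numbered 1, 5, 5, 5, 7, 4 and 7, the 1 lost being NOTCH2 (adjusted p = 0.0501).

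Values that changed sign were all uncalled and did so with 1 library left out. Between doses the leave-out ranges were NOTCH2 -0.02 to 0.87, NOTCH3 -0.09 to 0.11 (also -0.02), JAG1 -0.29 to 0.36 (also -0.20) and JAG2 -0.03 to 0.008. Against H2O the 10 µM ranges were -0.37 to 0.19 for JAG1 and -0.001 to 0.05 for MAML1, and the 50 µM range of JAG1 was -0.34 to 0.23. In labelled knockout 1 RBPJ ranged from -0.05 to 0.03 (also 0.01), HES6 from -0.11 to 0.16 (also -0.007) and HEYL from -1.21 to 1.13. In labelled knockout 2 HES1 ranged from -0.27 to 0.02, RBPJ from -0.07 to 0.001 and HEYL from -0.52 to 0.29, and in labelled knockout 3 NRARP from -0.05 to 0.13, NOTCH4 from -0.04 to 0.21 and RBPJ from -0.05 to 0.003.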
